A study of Mus musculus with 21 samples.

Results

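The replication-dependent histone genes of the mouse were followed through RNA-seq libraries of tumour endothelial cells. They were chosen by gene symbol: all genes of the deposited table named Hist1h, Hist2h, Hist3h or Hist4h and listed above 0 in at least 1 library, which gave 70 of 45706 genes. The set was selected on a reading of these data, because Hist1h4m, a histone H4 gene, was near 0 in knockout libraries. The 70 genes comprised 6 of type H1, 19 of H2a, 20 of H2b, 12 of H3 and 13 of H4, and 1 more matching gene, Hist1h2aa, was at 0 in every library. The cells were sorted for CD31 from E0771.lmb mammary tumours of adult mice, taken 14 to 16 days after injection of the tumour cells. The 11 wild-type (WT) libraries and the 10 knockout (KO) libraries were made in 4 separate experiments, from 9 WT and 8 KO tumours. KO mice were Shb iECKO, with the genotype Shb flox/flox; Cdh5-CreERt2, in which tamoxifen activates a Cre recombinase made under an endothelial promoter. Tumours were grown after tamoxifen. The protocol names a further line as an alternative, Shb ICKO, in which Vav1-cre, active in blood cells, acts on Shb flox/flox, and it places a CD45+ magnetic bead step ahead of sorting. No sample label names the Vav1-cre line. WT mice carry no further description in the labels, and the labels do not say which libraries share a tumour, so p-values over libraries that share one are too small. A pair of columns bears the same header, KO replicate 3 of experiment 2. They are called 3a and 3b here and are both counted under experiment 2, and the sample titles list a KO replicate 3 of experiment 4 that no column is named for. Values of 3b are written with up to 6 decimals, as in all columns headed experiment 4, which it directly precedes, and those of 3a with 2, as in the rest of experiment 2. The second column may therefore be the missing library, which was not settled, and values within experiments 2 and 4 depend on it.

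Replication-dependent histone genes supply the core histones H2A, H2B, H3 and H4 and the linker histone H1 when DNA is copied. They lie in clusters of many similar copies, have no introns as a rule, and their mRNAs end in a short stem loop instead of a poly(A) tail. The stem loop is bound by Slbp, and the mRNAs are made in S phase and degraded when it ends, so in a tissue they are abundant where cells divide. Libraries made from total RNA after removal of ribosomal RNA, as here, do not need a poly(A) tail to capture them.

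The copies are so alike that sequence decides how far one can be told from another. All 13 H4 genes encode the same protein of 103 residues, written in 12 different coding sequences. The first 90 coding bases are shown for Hist1h4m, for Hist1h4i, which with Hist1h4h is nearest to it among those not identical, for the H4 gene with the highest level and for the most distant one, with capitals where a base differs from Hist1h4m.
Hist1h4m: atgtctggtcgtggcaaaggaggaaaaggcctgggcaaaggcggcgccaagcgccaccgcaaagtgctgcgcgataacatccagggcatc
Hist1h4i: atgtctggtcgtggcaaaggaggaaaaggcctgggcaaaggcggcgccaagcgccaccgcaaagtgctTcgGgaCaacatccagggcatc
Hist1h4d: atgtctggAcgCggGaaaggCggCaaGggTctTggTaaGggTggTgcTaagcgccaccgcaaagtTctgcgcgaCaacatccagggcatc
Hist4h4: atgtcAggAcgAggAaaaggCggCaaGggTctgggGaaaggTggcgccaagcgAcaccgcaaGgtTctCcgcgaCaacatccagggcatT
Over the 312 coding bases Hist1h4i differed from Hist1h4m at 10 positions, as did Hist1h4h, Hist1h4d differed at 20 and Hist4h4 at 42. Hist1h4n had none. Its annotated transcript, of 430 bases, matches that of Hist1h4m, of 402 bases, except for 1 base in the 5′ untranslated region and 28 further bases at the 3′ end. The base is G36A, counted from 1 at the 5′ end of the Hist1h4m transcript and with the base of Hist1h4m first, and it lies 3 bases before the start codon. Bases 22 to 51 of both transcripts are shown with this base in capitals.
Hist1h4m: acagttttgtcttcGtcatgtctggtcgtg
Hist1h4n: acagttttgtcttcAtcatgtctggtcgtg
Of the 253 stretches of 150 bases (the read length) in the Hist1h4m transcript, 217 (85.8%) also occur in Hist1h4n. Only 36 (14.2%) belong to Hist1h4m alone among the annotated mouse transcripts.

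Both genes lie on chromosome 13 of GRCm38 and have a single exon. Hist1h4m runs from 21811746 to 21812147 on the plus strand, and Hist1h4n from 21831767 to 21832196 on the minus strand, 19619 bases away. Their promoters are near-identical too: the 250 bases before the start were the same after a shift of 1 base, whereas 127 aligned bases of the Hist1h4m promoter were identical in Hist1h4d. The last 100 bases before the RefSeq start are given 5′ to 3′ on the strand of each gene, with TATAA in capitals (RefSeq, GRCm38.p6), since the near-identity of this pair bears on every value of Hist1h4m.
Hist1h4m, chr13:21811646-21811745, plus strand: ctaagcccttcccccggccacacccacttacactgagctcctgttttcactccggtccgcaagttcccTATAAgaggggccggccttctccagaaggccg
Hist1h4n, chr13:21832198-21832297, minus strand: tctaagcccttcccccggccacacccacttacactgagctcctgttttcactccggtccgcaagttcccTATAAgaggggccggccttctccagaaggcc
RefSeq promoters of 300 bases (250 before and 50 after the start) were found for 59 of the 70 genes. Only the 250 bases before the start were searched, on both strands. TATAA was in 39 of 59 (66.1%) against 23.5% of all 27025 promoters. CCAAT was in 48 of 59 (81.4%) against 34.5%. It was in every H1, H2a and H2b promoter, in 8 of 10 for H3 and in 3 of 12 for H4. The octamer ATTTGCAT was in 11 of 59 (18.6%) against 1.61%, in 6 H2a and 5 H2b promoters. It was in none of the H1, H3 and H4 promoters. These matches of letters are a description of the windows searched.

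The stem loop at the 3′ end was searched as 6 paired bases on either side of a loop of 4. The stem had to start with GG and the loop with TT, as in histone mRNAs, and the counts below hold for this form only. It was found after the stop codon in 41 of the 50 genes with at least 30 annotated bases there (82.0%), and anywhere in a transcript in 42 of the 68 annotated histone genes (61.8%), against 185 of all 55439 genes (0.334%). The 3 most common forms are given with the paired bases in capitals, because they mark the class of mRNA to which these genes belong.
In 23 genes: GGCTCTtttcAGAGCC
In 7 genes, all H4: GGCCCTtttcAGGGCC
In 6 genes: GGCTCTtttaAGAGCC
Hist1h4m and Hist1h4n both carry the second form.

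Levels are given in TPM, which the authors computed and which divides reads by gene length and scales each library to the same sum. Means are given ± SD over 10 KO and 11 WT libraries. Hist1h4m (ENSMUSG00000069306) was 0 TPM in both KO libraries of experiment 1. In KO replicates 1, 2, 3a and 3b of experiment 2 it was 0, 0, 2.52 and 0.583 TPM. It was 0 and 1.38 TPM in KO replicates 1 and 2 of experiment 3, and 0.607 and 66.6 TPM in those of experiment 4. In WT replicates 1, 2 and 3 of experiment 1 it was 138.2, 89.2 and 30.2 TPM, and in those of experiment 2 it was 39.8, 30.9 and 70.0 TPM. WT replicates 1 and 2 of experiment 3 had 112.2 and 54.4 TPM, and WT replicates 1 to 3 of experiment 4 had 63.3, 17.3 and 90.5 TPM. Thus 9 of 10 KO libraries were under 3 TPM, all 11 WT libraries were above 17 TPM, and KO replicate 2 of experiment 4 lay among the WT values, so the groups overlapped through that library. The KO mean was 7.17 ± 20.9 TPM and the WT mean 66.9 ± 37.7 TPM, a difference of -4.71 ± 0.58 (SE) on the log2(TPM + 1) scale. This difference chose the genes and is given as a description without a test.

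Hist1h4n (ENSMUSG00000069305), the near-identical copy, was at 0 in 2 KO libraries and 1 WT library and high in others of both genotypes. KO libraries of experiment 1 had 166.2 and 249.6 TPM, and those of experiment 2 had 100.8, 31.1, 84.8 and 0 TPM for replicates 1, 2, 3a and 3b. In experiment 3 the KO values were 359.9 and 82.8 TPM, and in experiment 4 they were 117.3 and 0 TPM. WT values were 344.9, 0 and 44.4 TPM in experiment 1, and 59.0, 84.9 and 39.0 TPM in experiment 2. They were 139.0 and 283.5 TPM in experiment 3, and 21.6, 126.8 and 0.332 TPM in experiment 4. Zeros and high values stood in both genotypes, and the ranges overlapped almost entirely. The KO mean was 119 ± 114 TPM and the WT mean 104 ± 114 TPM, with a log2 difference of 0.09 ± 1.21 (SE; adjusted p = 0.995 by limma), whose sign turned in some alternative fits.

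Added together, the copies gave 126 ± 107 TPM in KO against 171 ± 132 TPM in WT. The sum lay between 0.583 and 359.9 TPM in KO and between 74.6 and 483.1 TPM in WT. Apart from KO replicate 3b of experiment 2, which had almost none of either copy, and KO replicate 2 of that experiment (31.1 TPM) and KO replicate 2 of experiment 4 (66.6 TPM), the KO sums lay within the WT range. With the copies summed before the fit, an analysis chosen after seeing the data, the log2 difference was -0.78 ± 0.58 (SE) in place of -4.71. Within experiments 1 to 4 the mean log2 difference of the sum was 0.46, -2.06, -0.74 and -0.22, against -6.19, -4.88, -5.68 and -2.19 for Hist1h4m alone. On this log2 scale the sum was therefore higher in KO in experiment 1 and lower in the other 3. In TPM the mean sum of experiment 1 was 207.9 in KO and 215.6 in WT. The values of experiments 2 and 4 rested on KO replicate 3b: without it the sum differed by -0.72 in experiment 2, and with it placed in experiment 4 the sum there differed by -2.16.

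The share of the summed level that was listed under Hist1h4m restates the pattern that chose the genes and is given as a description. It was 0 to 2.89% in 8 of 10 KO libraries and 100% in the other 2, KO replicate 3b of experiment 2 and KO replicate 2 of experiment 4, in both of which Hist1h4n was at 0. In WT it was spread from 12.0% to 100%, with a median of 40.5%. Over the libraries of a genotype together, Hist1h4m held 5.67% of the summed level in KO and 39.2% in WT. How the authors' counting divided reads that fit both genes is not given in the sources used here, and its part in these values was not tested.

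**Figure D1:**
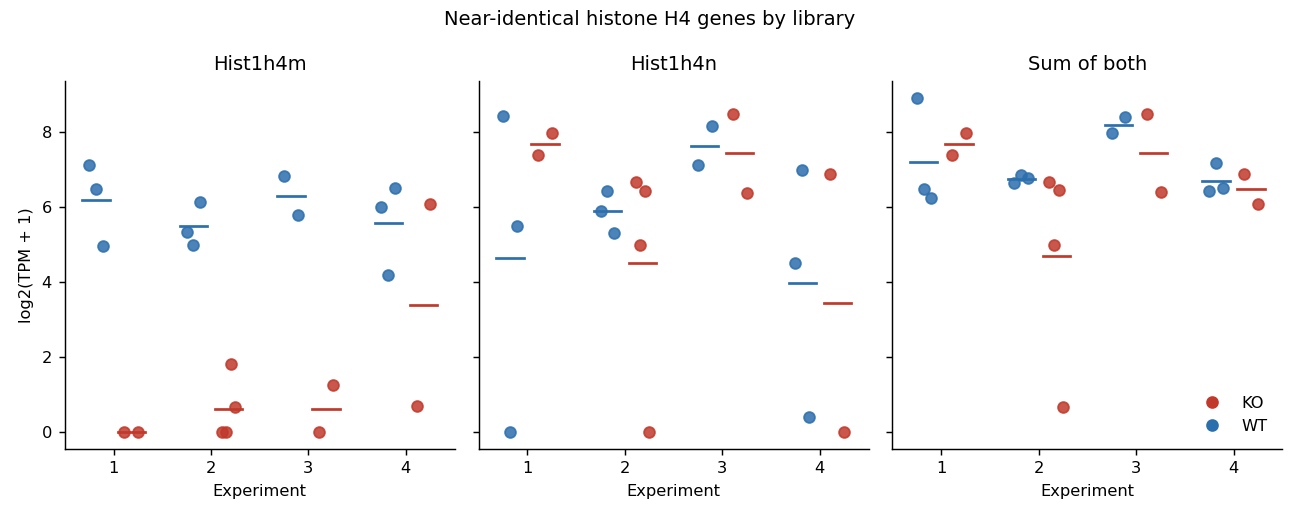
Levels of Hist1h4m, of Hist1h4n and of their sum as log2(TPM + 1) in each library (points) with the mean of each genotype in each experiment (lines). Hist1h4m is under 3 TPM in 9 of 10 KO libraries, whereas the sums of most KO libraries stand among the WT sums.

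KO replicate 2 of experiment 4 also stood apart in the markers of the sorted cells. Its Pecam1, the gene of CD31, was 241.7 TPM, against a median of 1235 TPM over the 21 libraries, and only WT replicate 2 of experiment 4 was lower, at 95.04 TPM. The targeted gene, Shb, an adaptor protein, was 6.00 to 52.7 TPM in KO (22.8 ± 16.6) and 17.3 to 74.3 TPM in WT (37.3 ± 18.1). These are levels of the whole gene, not of the deleted part, and the groups overlapped. In experiments 1 and 3 the KO mean was not below the WT mean (44.5 against 42.1 TPM and 26.71 against 25.005 TPM), whereas it was in experiments 2 (17.8 against 50.4 TPM) and 4 (6.99 against 27.7 TPM). Endothelial genes were abundant in most libraries: Cdh5, the gene of VE-cadherin, ranged from 105.7 to 2046 TPM. Each of the 10 endothelial markers was above 0 in at least 1 library. Leukocyte markers summed to 71.6 to 394.8 TPM in KO and 85.8 to 5970 TPM in WT, with the highest value in WT replicate 2 of experiment 3, and the epithelial marker Epcam was at 0 in 14 of 21 libraries. Between 12178 and 20526 genes were above 0 in a library, and since TPM keeps no depth, the reads behind a value are unknown. With bulk samples, fewer expressing cells and less RNA per cell cannot be told apart.

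Of the other 12 H4 genes, 9 had a lower fitted level in KO (median log2 difference -1.18) and none had an adjusted p under 0.05 with limma. The share of all tested genes lower in KO was 64.0%, with a median of -0.11. Hist1h4d (ENSMUSG00000061482) had the highest mean of all 70 genes, 252 ± 199 TPM over the 21 libraries (SD), and it ranged from 0 to 666.4 TPM in KO with a median of 143.35, and from 103.6 to 736.3 TPM in WT with a median of 257.9. Then followed Hist1h4n (111 ± 111 TPM), Hist1h4c (98.3 ± 79.2) and Hist1h4h (90.6 ± 79.0). Hist1h4a, Hist1h4f, Hist1h4k, Hist1h4b and Hist1h4m had means from 61.8 down to 38.5 TPM. Lowest were Hist2h4 (13.7 ± 11.1), Hist1h4i (10.1 ± 7.81), Hist1h4j (7.38 ± 6.02) and Hist4h4 (3.29 ± 2.44). Neighbours in this order differed by less than the SD of the higher one. TPM depends on the length of the gene model, and these differ: 402 bases for Hist1h4m and 1138 for Hist1h4d.

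**Figure D2:**
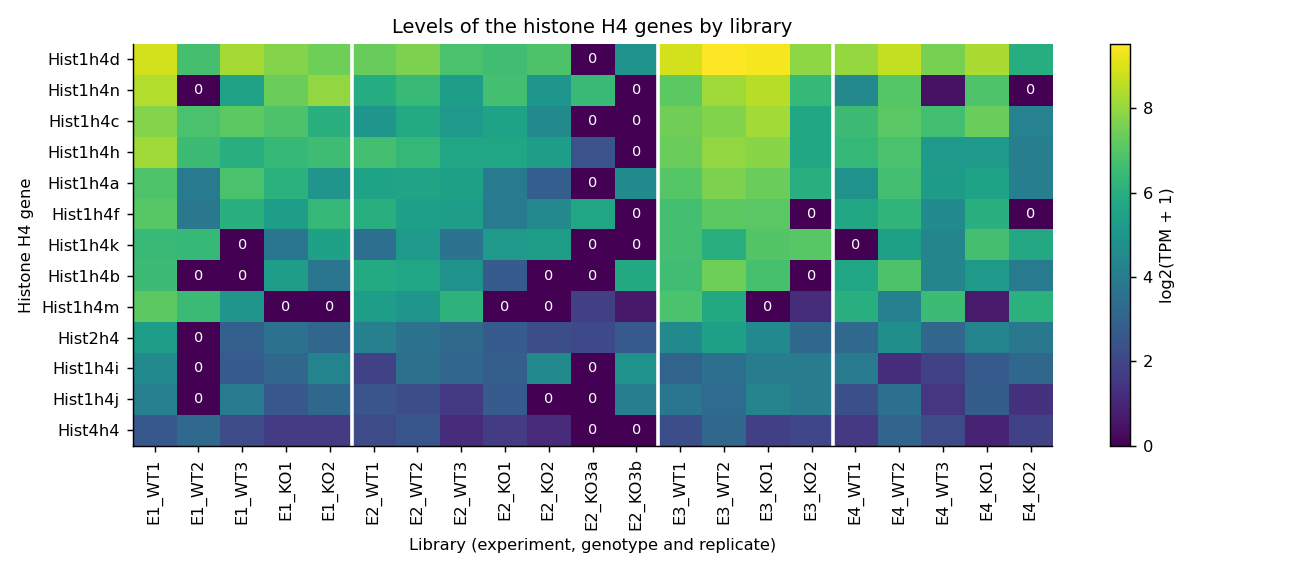
Levels of the 13 histone H4 genes (rows, ordered by mean) in the 21 libraries (columns, grouped by experiment), as log2(TPM + 1), with 0 printed where a gene was at 0 TPM. Hist1h4m is at 0 in 5 libraries, all KO, as are the 1 to 3 zeros each of Hist1h4d, Hist1h4c, Hist1h4h, Hist1h4a, Hist1h4f and Hist4h4. Those of Hist1h4n, Hist1h4k, Hist1h4b, Hist1h4i and Hist1h4j fall in both genotypes, and the 1 zero of Hist2h4 is in WT. The zeros of Hist1h4d, Hist1h4c, Hist1h4h, Hist1h4a and Hist4h4 are all in KO replicates 3a and 3b of experiment 2. These replicates had the fewest genes above 0.

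By type, the H2a genes made up the largest share of the summed TPM of the histone genes, 29.7 ± 3.09% (SD, n = 21). H3 genes made up 23.1 ± 4.78%, H4 genes 21.2 ± 5.17%, H2b genes 14.8 ± 2.90% and the linker H1 genes 11.1 ± 1.96%. Like TPM itself, these shares depend on the length of the gene models. By genotype, the H1 share was 11.2 ± 2.33% in KO and 11.0 ± 1.68% in WT, and the H4 share 19.4 ± 5.24% in KO and 22.9 ± 4.72% in WT. The summed level itself varied 8.59-fold between libraries, from 1228 TPM in KO replicate 3b of experiment 2 to 10550 TPM in WT replicate 2 of experiment 3. It was 3075 ± 2518 TPM in KO (lowest 1228, median 2390, highest 9797) and 4549 ± 3033 TPM in WT (lowest 2028, median 2919, highest 10550). The ranges overlapped over most of their length.

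**Figure D3:**
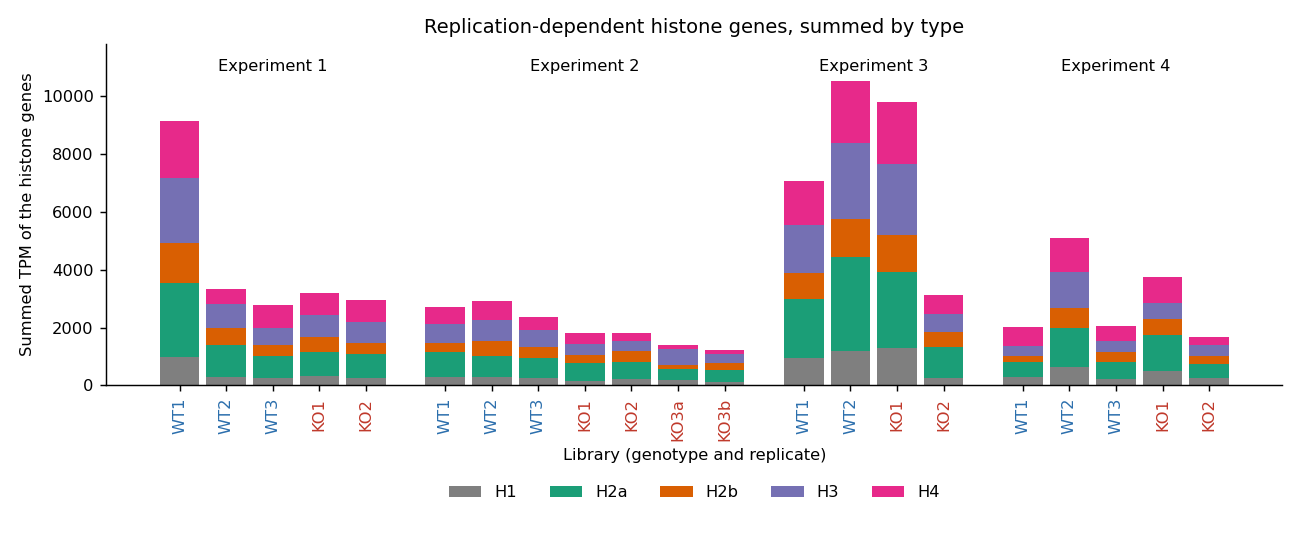
Summed TPM of the histone genes of each type (stacked colours) in each library, grouped by experiment, with KO libraries labelled in red and WT in blue. The 5 tallest bars, 4 of them WT libraries, reach 5092 to 10550 TPM, and the other 16 libraries lie between 1228 and 3749 TPM.

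The 5 libraries with the most histone mRNA were WT replicates 1 and 2 and KO replicate 1 of experiment 3, WT replicate 1 of experiment 1 and WT replicate 2 of experiment 4. They held 5092 to 10550 TPM, and the other 16 held 1228 to 3749 TPM. The same 5 were the highest in the mean log2(TPM + 1) of 30 S phase and proliferation genes, and 4 of them were among the 7 libraries with the most genes above 0. Their mean log2 of leukocyte markers ran from 4.15 to 7.95, and their Pecam1 from 95.04 to 1960 TPM. The part of these in the histone level was not tested.

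Of the 70 genes, 60 reached 1 TPM in at least 10 libraries and were tested with limma on log2(TPM + 1), with experiment as a covariate and Benjamini-Hochberg adjustment over all 13503 genes tested. The 60 were 5 of H1, 17 of H2a, 14 of H2b, 11 of H3 and all 13 of H4. Between genotypes 1 of 13503 genes (0.00741%) had an adjusted p under 0.05. This was Hist1h4m, the gene that chose the set, so nothing is read from it. None of the other 59 histone genes passed, and none did in any of 41 alternative fits. At an unadjusted p under 0.05 there were 11 of 59, all lower in KO, and 794 of 13503 genes (5.88%). That count of 11 rested on a few libraries: it was 2 without the 3 libraries lowest in Pecam1, 6 without KO replicates 3a and 3b, 3 without experiment 2 and 19 without experiment 1. It was 7 without WT replicate 1 of experiment 2, 17 without WT replicate 3 of experiment 1 or KO replicate 1 of experiment 3, and 18 without KO replicate 1 of experiment 4.

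As a description, 52 of the 59 other than Hist1h4m had a log2 difference below 0, with a median of -0.71 (53 of 60 and -0.73 with it), against 64.0% of all genes tested and a median of -0.11. Shifting each library to a common median moved the median of all genes from -0.11 to -0.01 and that of the 60 histone genes to -0.62, with 51 below 0. Within experiments 1 to 4 the histone genes lower in KO numbered 36, 57, 51 and 36 of 60, with medians of -0.32, -1.42, -0.77 and -0.28. The medians of all genes there were 0.30, -0.18, 0.08 and -0.56, so in experiment 4 the histone genes lay above all genes and in the other 3 below. With KO replicate 3b placed in experiment 4, they numbered 45 of 60 there, with a median of -0.77 against -0.39 for all genes, and without it experiment 2 had 55 of 60 and -1.09 against -0.06. Leukocyte markers moved the same way: 9 of 9 tested were lower in KO, with a median of -1.47, 7 of them at an unadjusted p under 0.05, and none passed adjustment. Fibroblast markers (4 of 4 lower, median -1.31, 2 at that p) and pericyte and smooth muscle markers (4 of 4 lower, median -1.16, 3 at that p) did likewise. Endothelial markers went the other way, with 9 of 10 higher in KO, a median of 0.14 and none at that p. KO libraries also had fewer genes above 0 (median 14374 against 18024 in WT) and more histone genes at 0 (median 17 against 6). The part of these in the histone values was not tested.

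**Figure D4:**
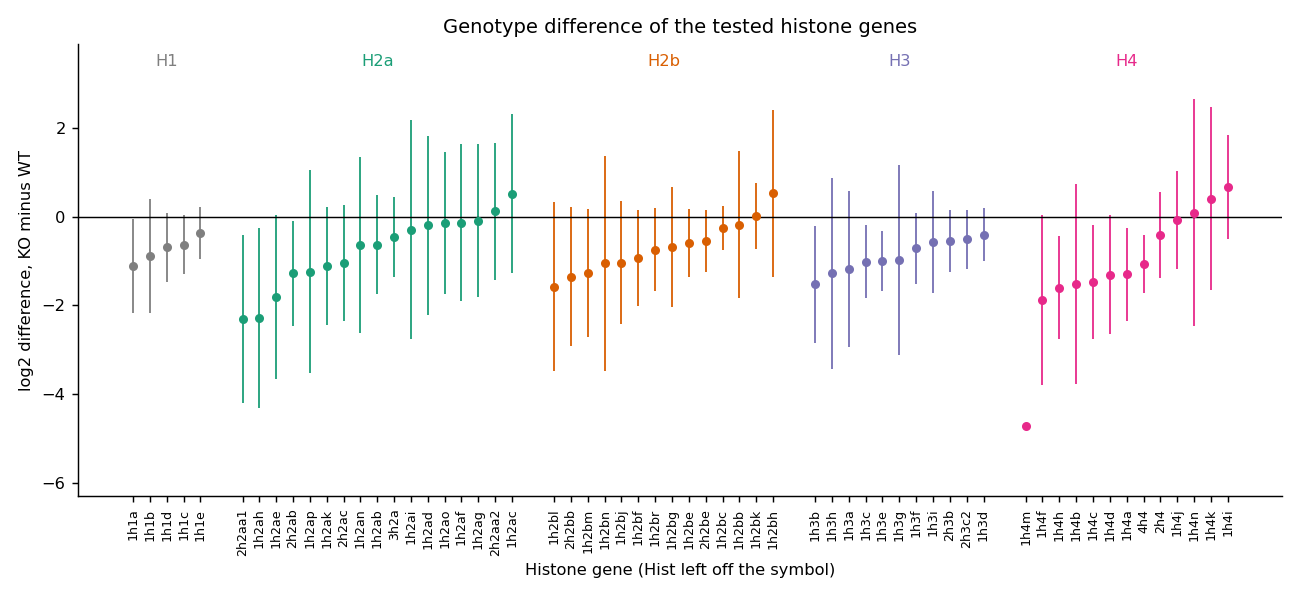
Log2 difference (KO minus WT) of the 60 tested histone genes by type, with 95% confidence intervals from limma, not adjusted for the number of genes. Hist1h4m is drawn as a point without an interval, since it chose the set, and 53 of the 60 points lie below 0.

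Among the linker histones, which bind the DNA between nucleosomes, Hist1h1e had the highest mean, at 148 ± 128 TPM in KO against 194 ± 130 TPM in WT. Its log2 difference was -0.37 ± 0.28 (SE; adjusted p = 0.870 by limma). The order by TPM depends on the length of the gene models, which is 1930 bases for Hist1h1e and 7425 for Hist1h1d. Hist1h1d averaged 70.8 ± 78.4 TPM in KO and 120 ± 108 TPM in WT, and Hist1h1c averaged 59.1 ± 52.2 and 85.9 ± 48.6 TPM. All 5 tested H1 genes had differences below 0, from -1.11 to -0.37. Hist1h1t, the linker histone of the testis, was at 0 in 15 of 21 libraries and averaged 0.247 TPM.

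In H2a the highest means belonged to Hist2h2aa1 and Hist2h2aa2, a near-identical pair on chromosome 3, and to Hist1h2ap. Every 150-base stretch of the Hist2h2aa2 transcript also occurs in Hist2h2aa1. Hist2h2aa1 averaged 126 ± 158 TPM in KO and 246 ± 252 TPM in WT, with a fitted difference of -2.30 ± 0.91 (log2, SE; adjusted p = 0.820 by limma). Hist2h2aa2 averaged 164 ± 80.5 TPM in KO and 205 ± 129 TPM in WT, and its log2 difference was 0.13 ± 0.74 (SE). Their sum differed by -0.61 ± 0.33 (SE). Hist1h2ac, 1 of 7 genes with a difference above 0, ranged from 0 to 133.6 TPM in KO (median 44.1) and from 0 to 116.0 TPM in WT (median 27.1), and its log2 difference of 0.52 ± 0.86 (SE) was smaller than its error.

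In H2b Hist1h2bg (103 ± 81.9 TPM over the 21 libraries, SD), Hist1h2bk (77.9 ± 56.2) and Hist1h2bc (76.7 ± 37.2) led. Hist1h2bc ranged from 15.2 to 123.7 TPM in KO and from 29.9 to 142.2 TPM in WT. Hist1h2bk had a log2 difference of 0.01 ± 0.36 (SE), and Hist1h2bh of 0.53 ± 0.90 (SE). Hist1h2ba, an H2B gene of the male germ line, was above 0 in 1 library only. The H3 genes were led by Hist2h3b (230 ± 172 TPM), Hist1h3c (106 ± 92.8) and Hist2h3c2 (93.9 ± 86.7), and all 11 tested had a difference below 0.

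The smallest unadjusted p-values toward lower levels in KO, after Hist1h4m, belonged to Hist4h4, Hist1h3e and Hist1h4h. Hist4h4, a lone H4 gene on chromosome 6, ranged from 0 to 3.10 TPM in KO (median 2.15) and from 1.34 to 8.47 TPM in WT (median 3.83), so the groups overlapped. Its log2 difference was -1.05 ± 0.32 (SE; unadjusted p = 0.00284 and adjusted p = 0.820 by limma). Hist1h3e ranged from 4.56 to 173.8 TPM in KO (median 36.7) and from 32.8 to 206.2 TPM in WT (median 62.3), with a log2 difference of -0.99 ± 0.33 (SE; adjusted p = 0.820). For Hist1h4h the KO range was 0 to 227.2 TPM (median 43.1) and the WT range 33.9 to 283.7 TPM (median 90.7), with a log2 difference of -1.60 ± 0.56 (SE; adjusted p = 0.820). Toward higher levels in KO, Hist1h4i came first, with 12.7 ± 8.61 TPM in KO, 7.70 ± 6.47 TPM in WT and a log2 difference of 0.67 ± 0.57 (SE; adjusted p = 0.891).

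In some other sets of copies that share much of their sequence, too, 1 copy could hold nearly all of the summed level. Genes were joined where at least 80% of the 150-base stretches of 1 of them also occur in the other. This put 12 of the 70 genes into 5 sets. Some entered through the share of a partner only: Hist1h2ad shares 49.9% of its stretches with its closest gene, Hist1h2ah, and Hist1h2ai shares 77.5% with Hist1h2ad. In the set of Hist1h2ad, Hist1h2ah, Hist1h2ai and Hist1h2aj at least 1 copy was at 0 in all 21 libraries. Hist1h2aj, annotated as a pseudogene, was itself at 0 in 20 of them, so this count rests largely on it. The highest copy there held a median of 95.9% of the summed level over the 9 KO libraries with a sum above 0, and 59.3% over the 11 WT libraries. Hist1h2ah alone had a log2 difference of -2.28 ± 0.98 (SE), Hist1h2ai of -0.29 ± 1.18 and Hist1h2ad of -0.19 ± 0.97, and the sum of all 4 had -0.73 ± 0.70. In Hist1h2ao and Hist1h2ap, which lie beside Hist1h4m and Hist1h4n, the higher copy held a median of 98.0% of the sum over the 20 libraries where it was above 0, and the sum differed by -0.92 ± 0.64 (SE). Hist1h2bq and Hist1h2br summed to 12.2 ± 11.2 TPM in KO and 16.4 ± 10.4 TPM in WT (-0.82 ± 0.46). Hist2h2aa1 and Hist2h2aa2 were more evenly split: the higher copy held a median of 65.6% of their sum over the 21 libraries (65.1% in KO and 65.6% in WT). The sums of the 5 sets had log2 differences between -0.92 and -0.61, and the tested single copies other than Hist1h4m, which chose the set, ran from -2.30 to 0.13.

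**Figure D5:**
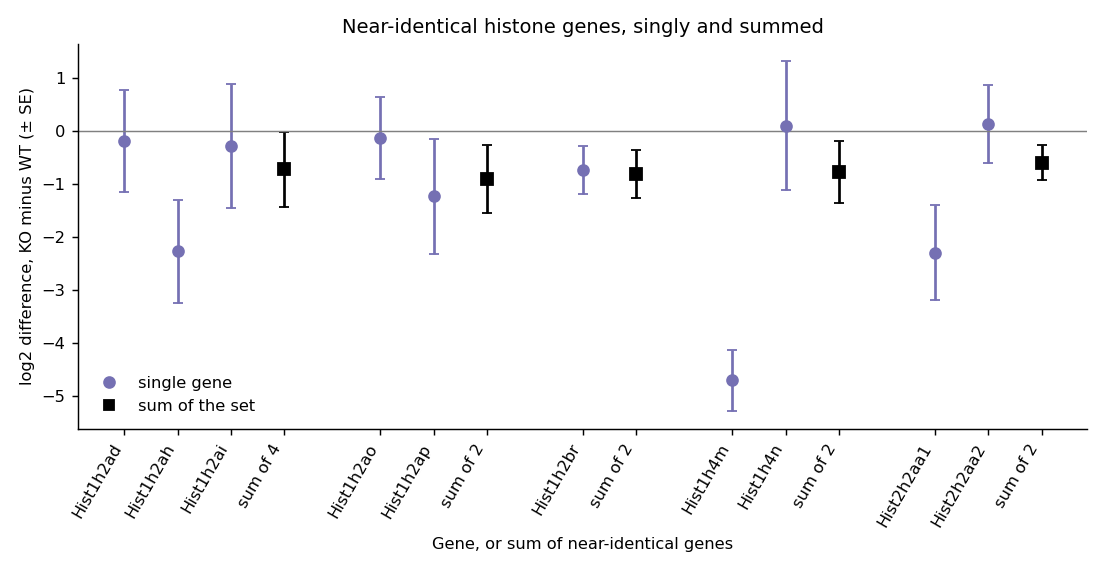
Log2 difference (KO minus WT, with its SE) of each tested gene in the 5 sets joined by shared sequence (circles) and of the sum of its set (squares). Single copies other than Hist1h4m, at -4.71, the gene that chose the set, lie between -2.30 and 0.13, and the 5 sums lie between -0.92 and -0.61.

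Values of 0 were common. Only 11 of the 70 genes were above 0 in all 21 libraries, and 3 to 41 of them were at 0 in a library, the most in KO replicate 3a of experiment 2. The 22 genes with fewer than 50% of their stretches to themselves were at 0 in a median of 3.5 libraries (median level 42.3 TPM). The 31 genes with 50% to 99% were at 0 in a median of 2 (45.7 TPM), and the 15 with at least 99% in a median of 1 (13.7 TPM). The part of shared sequence, level and transcript length in these zeros was not tested. No annotated transcript was matched for Hist1h2bh and Hist1h2bm, so 68 genes enter this description. The 10 genes that were not tested had means of at most 5.36 TPM. They included Hist1h2aj, which was above 0 in 1 library (112.5 TPM in WT replicate 2 of experiment 1), and Hist2h3c1, at 0 in 19 libraries.

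The genes nearest to Hist1h4m on the chromosome are Hist1h2ao, 801 bases away, and Hist1h2bq, 1548 bases away, on one side, and Hist1h4n and Hist1h2ap on the other. Hist1h2ao averaged 16.4 ± 24.5 TPM in KO and 13.3 ± 19.5 TPM in WT (log2 difference -0.14 ± 0.77, SE). Hist1h2ap averaged 132 ± 135 TPM in KO and 202 ± 157 TPM in WT (-1.24 ± 1.09, SE). Hist1h2bq was near 0 in both genotypes, with 0.259 ± 0.263 TPM in KO and 0.877 ± 0.717 TPM in WT. Over the 21 libraries the pattern most like that of Hist1h4m was that of Hist4h4 (Pearson r = 0.566 of log2(TPM + 1)). Next were the noncoding gene that shares the symbol Hist2h2bb (ENSMUSG00000050936; r = 0.492) and Hist3h2ba (r = 0.480). These 3 genes had means of 3.29, 1.18 and 0.490 TPM. Within the 11 WT libraries r was -0.17, -0.00047 and 0.36 in the same order. Within the 10 KO libraries it was 0.08 and 0.53 for the first 2, and Hist3h2ba was at 0 in all 10. The ranking uses the pattern that chose the set and is given as a description.

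More genes differed between experiments than between genotypes. Between experiments 13 of the 60 tested histone genes had an adjusted p under 0.05 (limma F test), which is 21.7%, against 3931 of 13503 genes (29.1%). Of these, 5 were H3, 4 H2b, 2 H1 and 2 H4, and none was H2a. The smallest p belonged to Hist1h3d, a cluster H3 gene, with means of 77.5 ± 56.9, 26.9 ± 6.72, 117 ± 34.6 and 17.1 ± 8.32 TPM in experiments 1 to 4 (adjusted p = 0.000700). Hist1h3e followed the same order from experiment to experiment, with 89.2, 40.4, 129.1 and 28.4 TPM (adjusted p = 0.00704). Hist2h3c2 averaged 88.4, 45.7, 225.2 and 61.9 TPM (adjusted p = 0.00746). Among H2b genes, Hist1h2bf averaged 24.5, 4.24, 29.7 and 7.38 TPM (adjusted p = 0.00789), and Hist1h2bc 97.4, 40.9, 115.9 and 74.6 TPM (adjusted p = 0.00794). All 5 were highest in experiment 3. Summed over the 70 genes the level was 4278 ± 2729, 2033 ± 649, 7644 ± 3349 and 2919 ± 1458 TPM in experiments 1 to 4 (SD, n = 5, 7, 4 and 5). The count of 13 fell to 7 without KO replicate 1 of experiment 3 and to 0 without experiment 2, and it rose to 20 without KO replicate 3a. The count over all genes fell to 8 without experiment 2 and to 2335 without KO replicate 2 of experiment 4 or 2579 without WT replicate 3 of experiment 2, and it was 2869 without KO replicate 1 of experiment 3 and 4068 without KO replicate 3a.

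Whether the genotype difference varied between experiments was tested with the interaction of both. No gene passed, 0 of 13503 (0%), and 518 had an unadjusted p under 0.05. None of the 60 histone genes did at that level. The count over all genes was 15 without the filter, and leaving out KO replicate 1 gave 27 for experiment 4 and 1 for experiment 2, with no histone gene among them.

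The genes that process and pack histone mRNA and protein showed small differences. Of 27 histone mRNA processing genes, 21 were lower in KO, with a median log2 difference of -0.08, and none passed adjustment. The share of all tested genes lower in KO was 64.0%, with a median of -0.11. Slbp, the stem-loop binding protein, averaged 63.2 ± 26.6 TPM in KO and 65.2 ± 30.4 TPM in WT. Cpsf3, the nuclease that cuts histone mRNA after the stem loop, averaged 20.6 ± 10.7 and 32.1 ± 9.45 TPM, which differed by -0.75 ± 0.26 (log2, SE; adjusted p = 0.820 by limma). Of 17 histone chaperones, 14 were lower, with a median of -0.30. Nap1l1, a chaperone of H2A and H2B, averaged 52.3 ± 29.6 TPM in KO and 69.1 ± 33.1 TPM in WT.

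Replication-independent histones, which are made outside S phase from polyadenylated mRNA, had 8 of 9 tested genes lower in KO, with a median of -0.17. For these and the S phase genes below, the share over all tested genes was 64.0%, with a median of -0.11. H3f3b, a gene of the variant H3.3, stood at 279 ± 69.1 TPM in KO and 289 ± 54.8 TPM in WT, and H2afz, the gene of H2A.Z, at 131 ± 48.1 and 171 ± 42.9 TPM (log2 difference -0.42 ± 0.19, SE; adjusted p = 0.820). Of 30 S phase and proliferation genes, 27 were lower in KO, with a median of -0.39, 3 of them at an unadjusted p under 0.05 and none after adjustment. Dut, which keeps uracil out of DNA, averaged 10.1 ± 10.9 TPM in KO and 25.8 ± 14.8 TPM in WT, and the helicase subunit gene Mcm3 33.2 ± 24.5 and 50.2 ± 16.4 TPM. Pcna, the replication clamp, averaged 119 ± 51.5 and 148 ± 42.1 TPM. Within experiments 1 to 4 the S phase genes lower in KO numbered 15, 28, 20 and 24 of 30, with medians of -0.01, -0.72, -0.23 and -0.66. Of all genes, 27.5%, 64.6%, 43.7% and 82.6% were lower there, with medians of 0.30, -0.18, 0.08 and -0.56. In experiment 4 as headed, the S phase genes, at 24 of 30, were not lower more often than all genes, but their median was lower. With KO replicate 3b placed in experiment 4, 26 of 30 were lower there (median -0.64), against 74.6% of all genes (median -0.39). Without it, experiment 2 had 27 of 30 (median -0.52), against 54.5% of all genes (median -0.06).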

How the data were processed

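The authors deposited TPM values for 45706 genes in 21 columns, from stranded libraries of ribosome-depleted total RNA (30 ng) with paired reads of 150 bases, per the labels. GRCm38 is the build named by the submitters' processing notes. Which programs aligned and counted the reads is not stated in the sources used here, and TPM keeps no depth, so counting intervals cannot be given. Columns were assigned by their headers, of which 1 is repeated, and the first and second column with it were kept as KO libraries of experiment 2.

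The histone genes and the comparison lists were chosen with earlier results of these data known. A gene was tested if 10 or more libraries reached 1 TPM. limma 3.58.1 in R 4.3.3 was run on log2(TPM + 1) with a trended, robust variance prior and terms for genotype and experiment, two-sided, with adjustment over all genes tested. That scale understates the change of low genes. The procedure was tested on simulated data. Alternatives changed the pseudocount, filter, scaling, variance prior, terms and libraries.

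Named genes are Hist1h4m, the 3 highest of each type, the 3 with the smallest p in each direction, the 5 most different between experiments, the 3 most like Hist1h4m, its 2 neighbours on each side, and, from each list, genes among the 3 with the smallest p and the 2 highest. Other histone genes named were chosen after their values were seen. Gene models and stretches of 150 bases came from GENCODE M21, which held 68 of the 70 identifiers, and promoters from RefSeq.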

Additional observations from a re-analysis of the deposited data

Results flagged for a closer look

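In the KO group, 34 levels were checked for a library whose gap to its nearest neighbour took an unusual share of the group's range. The limit was Dixon's critical value for 10 libraries, and 9 passed. Chance passes it in about 1 of 20 groups of normally distributed values. The levels here include many zeros, and the sums share genes with single levels, so the 9 are given as a description. The 11 WT libraries were not tested this way. Hist1h4m had its highest KO value, 66.6038 TPM, in replicate 2 of experiment 4, where the other 9 libraries were under 3 TPM.

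The lowest library stood apart for 6 further levels. In KO replicate 3a of experiment 2, Hist1h2bg, Hist1h4d and Hist1h4i were each at 0 TPM, and in KO replicate 2 of experiment 2 Hist1h2ac was at 0 TPM. KO replicate 3b of experiment 2 had the lowest Hist2h2aa2, at 28.3189 TPM, and the lowest sum of Hist1h4m and Hist1h4n, at 0.58267 TPM. KO replicate 1 of experiment 3 was the highest for Hist2h3b, at 475.13 TPM, and for the summed H3 genes, at 2462.83 TPM.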

How the results depend on the processing

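None of the other 59 histone genes passed between genotypes in any of the 41 alternatives. Over all genes, the count for KO against WT was 2 with a common median, quantile normalization or rescaled TPM (without the 20 highest genes). It was 0 without experiment 1 or 2, and 0 with Hist1h4m and Hist1h4n, or the copies of every set joined by shared sequence, summed. Both sums were chosen after seeing the data. With KO 3b placed in experiment 4 it stayed at 1, with 3379 genes and 12 histone genes different between experiments. With the replicate number as a block it was also 0, with 19 histone genes at an unadjusted p under 0.05. Deviations from the mean of each genotype and experiment were correlated over 9 same-numbered pairs. Only 2 had a correlation over 0.1 (range -0.2 to 0.356), both in experiment 4 (0.316 and 0.356). With 2 libraries of a genotype in an experiment, the deviations mirror each other, so the pairs are not independent. The correlations cannot settle whether the numbers pair the samples, and the main fit did not pair them.

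Between experiments, where leaving out the experiment term or adding the block gives no test, the count over all genes was 2529 without the filter, 2496 with a common median, 2339 with KO 3a in experiment 4 and 1846 without the 3 libraries lowest in Pecam1. It was 8 without experiment 2, 1723 without experiment 4, and 2335 to 5012 with single libraries left out. Among the histone genes it was 24 with a pseudocount of 5, 8 without the filter, 7 with rescaled TPM, 22 without KO 3a and 3b, 0 without experiment 2, 6 without experiment 3, and 7 to 20 with single libraries left out. The interaction count was 15 without the filter, 1 with KO 3a in experiment 4, 1 without experiment 1, and 0 to 27 with single libraries left out (27 without KO replicate 1 of experiment 4).

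Some differences within their error changed sign. Hist1h4n was -0.1824 with a pseudocount of 0.1, -0.05045 with rescaled TPM, -0.1678 with the block, -0.8088 without experiment 1, and -0.5001 to 0.7057 with single libraries left out. Hist1h2bh was -0.03105 with the block, -0.04546 without experiment 1 and -0.04782 without experiment 4, and Hist1h2ac was -0.0287 without experiment 1. The cause was not tested. Hist1h4m alone stayed between -6.69 and -3.06 in 39 alternatives. Depth is unknown, so zeros cannot be given a limit.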
